A study of Dendrobium huoshanense with 6 samples.

Results

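This account describes 86 abundant transcript features of Dendrobium huoshanense, a medicinal orchid, whose read levels stayed nearly level between cold-exposed and normally grown seedlings. They were chosen from 118758 features, of which 16105 were clusters of related contigs and 102653 were unclustered contigs. A feature was kept when it had at least 100 CPM (estimated reads of a feature over those of its library, times 1000000) in all 6 libraries and its highest CPM was at most 35% above its lowest. Of the 86, 76 were clusters and 10 were unclustered contigs, listed with the word Unigene. The levels themselves chose these features, so their levels and group differences are given as a description with no test.

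Messenger RNA of whole seedlings, purified with oligo(dT) beads, was sequenced in 3 libraries labelled as cold and 3 labelled as normal growth, given as biological repeats. The protocol text is the same for both groups and names 4 °C, 11 h of light per day and collection after 0 and 7 days. Read as day 7 for the cold group and day 0 for normal growth, the groups differ in time and age as well as in cold. The genotype, the number of seedlings behind each library and the temperature of normal growth are not stated in the labels, and p-values measure only the spread between these libraries. Estimated reads summed to 15284397, 16861750 and 17255112 in cold replicates 1, 2 and 3, and to 17683567, 18085164 and 17734859 in normal growth replicates 1, 2 and 3.

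In an assembly made from reads, a contig is a stretch of transcript, and contigs that share much of their sequence are gathered into a cluster. A cluster can therefore hold splice forms, alleles, close gene copies or fragments of a transcript, and its summed reads follow the locus or family while its contigs follow the single forms. In plants, cold is known to change both the amounts of many transcripts and the way transcripts are spliced, and transcripts with level amounts are commonly sought as references for quantitative PCR. The contigs carry IDs without gene names here, so no function is given to any of them.

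Steady levels were the exception among abundant features. Of 895 features with at least 100 CPM in all 6 libraries, 86 (9.61%) met the limit of 35%. A ratio over 3 libraries cannot exceed that over the 6 that contain them, so more features pass within a group. The highest CPM was at most 35% above the lowest within the 3 cold libraries for 424 of the 895 and within the 3 normal growth libraries for 610. Both held for 333 features, and 247 of these lay further apart once all 6 libraries were compared. The share of features within the limit was 10.1% of 595 features with a lowest CPM of 100 to 200, 9.32% of 236 from 200 to 500, and 6.25% of 64 above 500.

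**Figure D1:**
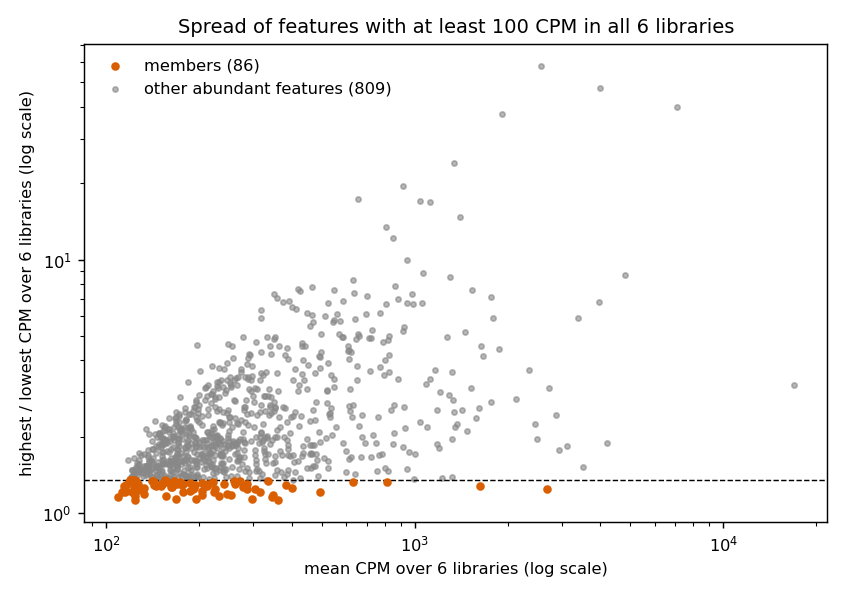
Each point is a feature with at least 100 CPM in all 6 libraries; the x axis is its mean CPM and the y axis the ratio of its highest to its lowest library, both on log scales. The 86 members lie under the dashed line at 35% above the lowest library, and the other 809 features reach a ratio of 58.2.

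The members were mostly of moderate abundance. Their mean CPM ranged from 109 to 2682 with a median of 171, against a median of 249 for the other 809 abundant features. Only 4 of the 86 had a mean of at least 500 CPM, or 4.65%, against 20.1% of the others. Their ratios of highest to lowest library ran from 1.12 to 1.347 with a median of 1.27, and their coefficients of variation over the 6 libraries from 4.15% to 12.8%. The member clusters held 2 to 35 contigs with a median of 5, the same median as the 651 other abundant clusters. The longest contig of a member had a median length of 3052 bases, against 2522 bases among the others. These are descriptions of the sets and carry no test.

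In bulk RNA, fewer cells of a type and less RNA per cell cannot be told apart. The members together took 2.17%, 2.16% and 2.15% of the reads in cold replicates 1, 2 and 3, against 2.15%, 2.204% and 2.07% in normal growth replicates 1, 2 and 3. The group means were 2.16% ± 0.0115 in the cold and 2.14% ± 0.0659 in normal growth (SD, n = 3 each). All abundant features together took 35.9% ± 0.334 of the reads in the cold and 39.9% ± 0.576 in normal growth (SD, n = 3 each). The level share of the members follows from how they were chosen.

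CL7903, of 4 contigs, was the most abundant member. It had 3019, 2761 and 2454 CPM in cold replicates 1, 2 and 3, against 2714, 2703 and 2439 CPM in normal growth replicates 1, 2 and 3. The third library of each group was the lowest of its group, and the groups overlapped. CL11336, of 8 contigs, had 1672, 1521 and 1441 CPM in the cold, against 1657, 1834 and 1606 CPM in normal growth. CL8990 averaged 802 ± 115 CPM in the cold and 817 ± 56.5 CPM in normal growth (SD, n = 3 each). CL10489 averaged 636 ± 89.1 CPM in the cold and 626 ± 64.2 CPM in normal growth (SD, n = 3 each). In CL7903, CL8990 and CL10489 the group means differed by less than the larger group SD. In CL11336, at 1544 ± 117 CPM in the cold and 1699 ± 120 CPM in normal growth (SD, n = 3 each), they differed by more than that, yet the libraries overlapped. Unigene473_All, the most abundant member with a single contig, of 3127 bases, averaged 512 ± 52.2 CPM in the cold and 473 ± 13.8 CPM in normal growth (SD, n = 3 each).

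The narrowest spread was that of CL8196, of 11 contigs, with a ratio of 1.12. It had 336, 359 and 341 CPM in the cold, against 377, 376 and 374 CPM in normal growth. Its 3 cold libraries all lay under the 3 normal growth libraries, so a narrow spread over 6 libraries did not mean that the groups overlapped. CL13694 had 119, 124 and 132 CPM in the cold, against 117, 126 and 127 CPM in normal growth. CL8610, CL4712 and CL6797 followed with ratios of 1.13, 1.14 and 1.14. CL4712 averaged 298 ± 1.76 CPM in the cold and 297 ± 19.4 CPM in normal growth (SD, n = 3 each), and its groups overlapped.

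At the low end, CL9468 averaged 108 ± 6.24 CPM in the cold and 110 ± 8.18 CPM in normal growth (SD, n = 3 each). CL4835, of 18 contigs, averaged 108 ± 0.853 CPM in the cold and 117 ± 11.0 CPM in normal growth (SD, n = 3 each). Unigene36897_All averaged 118 ± 14.5 CPM in the cold and 110 ± 9.81 CPM in normal growth (SD, n = 3 each). Just inside the limits stood Unigene41199_All, CL14654 and CL13529, with ratios of 1.347, 1.347 and 1.343, and CL9468, Unigene36897_All and CL3892, with lowest values of 101.4, 101.5 and 103.0 CPM. Just outside stood CL9583, CL3300 and CL9234, with ratios of 1.353, 1.353 and 1.355, and CL6785, Unigene77181_All and CL8209, with lowest values of 99.97, 98.9 and 98.2 CPM.

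The 10 unclustered members, whose level rests on 1 contig and involves no summing, ran from 654 to 5783 bases. The longest, Unigene5094_All, averaged 176 ± 12.9 CPM in the cold and 156 ± 14.7 CPM in normal growth (SD, n = 3 each). Unigene5862_All, of 3176 bases, averaged 276 ± 37.5 CPM in the cold and 241 ± 5.29 CPM in normal growth (SD, n = 3 each). It had 275, 240 and 315 CPM in the cold, so most of its spread lay between cold libraries.

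Some difference between the groups remained within the limit. The cold mean was the higher one in 47 members and the lower one in 39, and the group means lay within 10% of each other in 62 of 86. In 61 members the difference between the means was smaller than the larger of the group SDs. Every cold library exceeded every normal growth library in 6 members, and every cold library was under every normal growth library in 8. Among all 895 abundant features these shares were 31.2% and 25.4%, but the rule limits such gaps and nothing is read from the members' lower share. CL12163 stood furthest down, at 126 ± 5.38 CPM in the cold and 158 ± 2.16 CPM in normal growth (SD, n = 3 each), and was the only member whose group means differed by over 20%. It was followed by CL1770, at 111 ± 0.783 CPM in the cold and 136 ± 3.32 CPM in normal growth, and CL5395, at 307 ± 33.2 CPM in the cold and 363 ± 14.6 CPM in normal growth (SD, n = 3 each). Furthest up stood CL13529, at 130 ± 15.5 CPM in the cold and 111 ± 6.07 CPM in normal growth, CL3617, at 154 ± 11.7 CPM in the cold and 131 ± 6.54 CPM in normal growth, and CL5510, at 224 ± 12.5 CPM in the cold and 193 ± 8.63 CPM in normal growth (SD, n = 3 each).

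**Figure D2:**
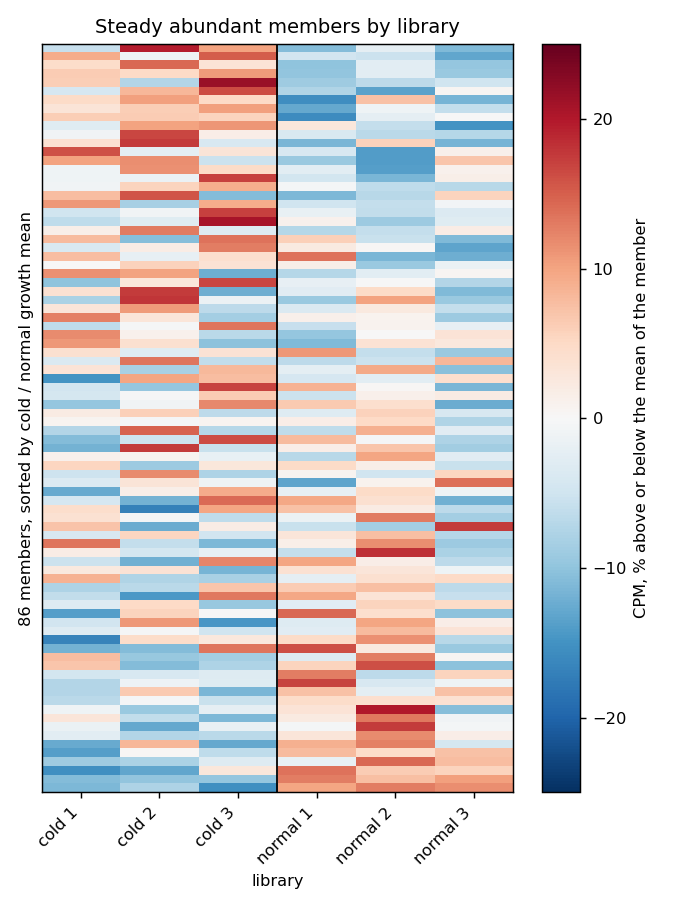
Each row is 1 of the 86 members and each column a library, with cold left of the black line and normal growth right of it; colour gives the CPM as a percentage above (red) or below (blue) the member's own mean over 6 libraries. In 72 of the 86 rows the cold and normal growth libraries overlap.

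The steadiness of a member holds for CPM on total reads and depended on the scaling. With TMM scaling, which sets libraries against each other through the bulk of features, 80 features met the rule and 52 of the 86 members were among them. With DESeq2 size factors the numbers were 69 and 33. The fitted log2 fold changes of the members, cold over normal growth, had a median of -0.10 after TMM and 0.022 on library size alone, while the median over all tested features was 0.07 after TMM and 0.19 on library size alone. Relative to that median the members stood at -0.17 with either scaling, and also at -0.17 with DESeq2 size factors in edgeR. Without 1 library they stood between -0.45 and -0.11. With no filter on low counts in edgeR they stood at -1.04, where the median over all features was 0.79. The DESeq2 test, which also kept low counts, gave -1.07, with a median over all features of 0.92. With TMM, 65 of the 86 fitted values were below 0. One member, CL12163, was among the 34.0% of features called at this level (edgeR quasi-likelihood test, adjusted p under 0.05), from which nothing is read because the rule used the same contrast.

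The number of features kept also depended on single libraries. When the rule was applied to 5 libraries, 105 to 149 features met it. Those that also met it with the library left out are by definition the 86 members, a share of 57.7% to 81.9%. The share describes how many features each library removed and is no check of the members. That share was lowest for cold replicate 3, with 86 of 149 features, and cold replicate 2, with 86 of 145. It was highest for normal growth replicate 1, with 86 of 105. Of the 149 features level over the other 5 libraries, cold replicate 3 stood too high for 30 and too low for 30. Of 123 features level without normal growth replicate 3, that library stood too high for 10 and too low for 27.

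The rule fixed only the total of a cluster, so how its reads were divided between contigs was left free and could be tested. A changed division was called in 33 of the 76 member clusters, or 43.4%, at an adjusted p under 0.05 (edgeR diffSpliceDGE, F test per cluster, Benjamini-Hochberg over 10253 clusters). Among all tested clusters the share was 23.1%, and among the 641 other tested clusters of similar minimum abundance it was 34.8%. The difference between 43.4% and 34.8% was not tested. The F test treats the contigs of a cluster as independent, which their shared reads break, so some calls may be false. Of the 33, 25 belonged to the 63 member clusters whose groups overlapped in total CPM and 8 to the 13 whose groups did not.

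The size of the change was taken as the largest difference, over the contigs of a cluster, between the mean share of the cluster's reads in the cold and in normal growth. Its median over the 76 member clusters was 12.6 percentage points, and it reached at least 20 points in 20 of them. Over the 651 other abundant clusters the median was 10.7 points. Among the 33 clusters called, the median was 18.7 points and the range 4.61 to 60.4. In 22 of the 33, the 3 cold shares of the contig concerned did not overlap the 3 normal growth shares, against 161 of the 223 other abundant clusters called. That contig held less of the cluster in the cold in 26 of the 33 (78.8%). The same direction was seen in 50 of all 76 member clusters (65.8%) and in 419 of the 651 other abundant clusters (64.4%). These shares were not tested against each other.

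CL3617 had the largest shift of the member clusters. Its contig of 1339 bases held 64.4%, 70.7% and 72.1% of the cluster's reads in the cold, against 8.16%, 7.78% and 9.92% in normal growth. Its contig of 1179 bases held 32.3%, 25.1% and 25.1% in the cold, against 80.5%, 87.9% and 78.7% in normal growth. The first contig led in every cold library and the second in every normal growth library (adjusted p = 8.1e-06 for the cluster, edgeR diffSpliceDGE). The total of CL3617 was not the same in the groups, at 154 CPM in the cold and 131 CPM in normal growth. It was higher in every cold library than in every normal growth library, a difference that the rule limits.

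In CL5510, of 8 contigs, the contig of 2926 bases held 40.9%, 28.4% and 34.8% in the cold, against 76.9%, 93.1% and 76.4% in normal growth (adjusted p = 0.00019, edgeR diffSpliceDGE). Contigs of 2720, 4457 and 2924 bases held the larger part of the rest in the cold. The total of CL5510 was also higher in every cold library than in every normal growth library, within the limit of 35%. CL8399 had only 2 contigs, and that of 1725 bases held 20.7%, 19.2% and 27.4% in the cold, against 62.6%, 76.5% and 62.7% in normal growth (adjusted p = 0.0030, edgeR diffSpliceDGE). In both clusters normal growth replicate 2 stood furthest from the cold libraries.

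In CL13466 the contig of 1922 bases held 42.9% ± 10.0 in the cold and 83.4% ± 9.52 in normal growth (SD, n = 3 each), and the contig of 3381 bases took most of the difference (adjusted p = 0.00022, edgeR diffSpliceDGE). In CL1770, of 24 contigs, the contig of 2253 bases held 16.5% ± 3.36 in the cold and 54.2% ± 3.86 in normal growth (SD, n = 3 each; adjusted p = 7.1e-07, edgeR diffSpliceDGE). A contig of 2025 bases held 11.2%, 12.1% and 13.3% in the cold, against 0%, 0% and 0.335% in normal growth. The calls of these 5 clusters held in each of the 6 fits that left out 1 library, with adjusted p up to 0.021 (edgeR diffSpliceDGE). With p-values combined over contigs by Simes' method, CL8399 was not called (adjusted p = 0.13, edgeR).

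**Figure D3:**
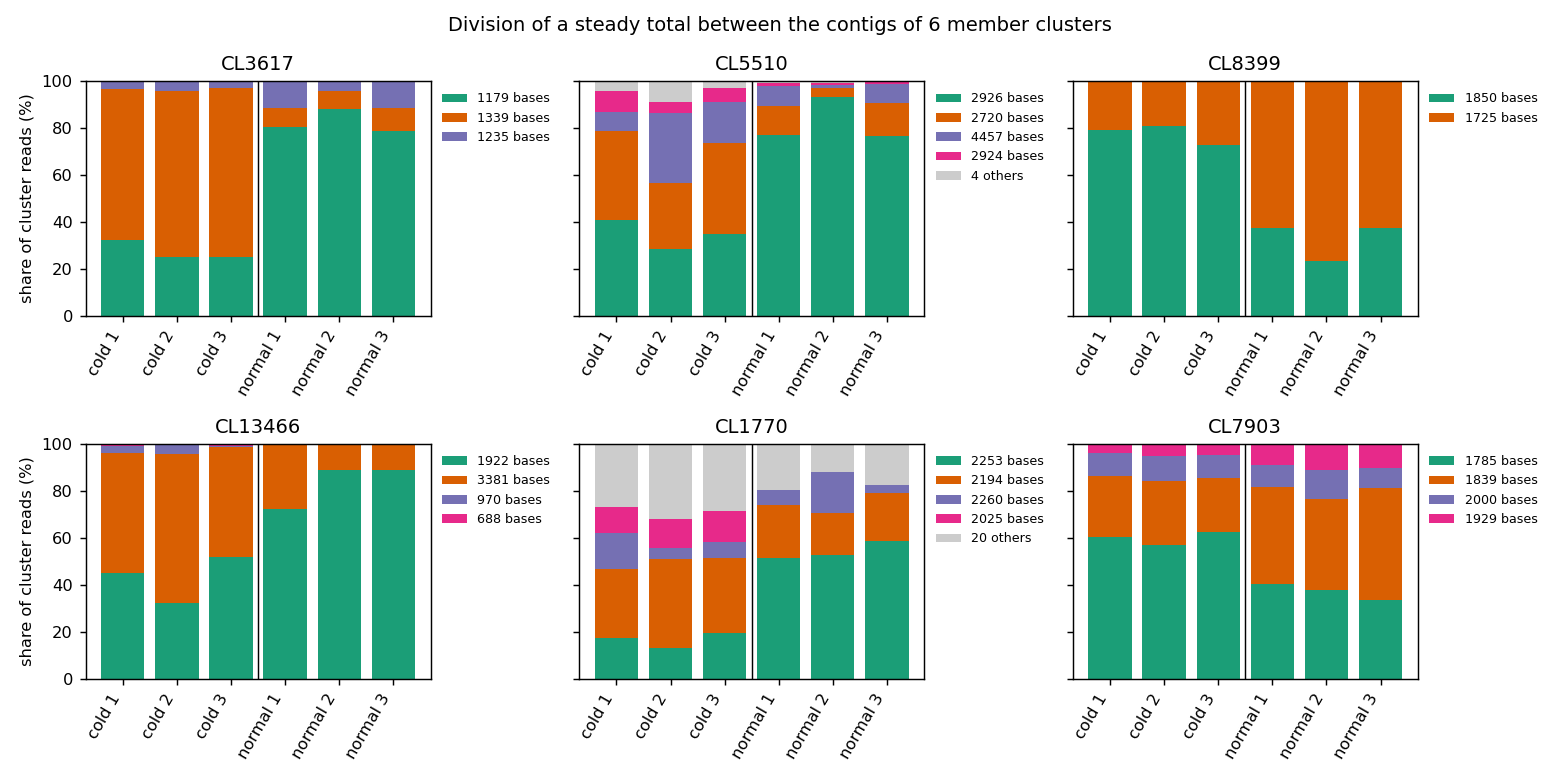
Bars give, for each library, the share of a cluster's reads (percent, y axis) held by its contigs, which are coloured by length in bases and stacked to 100%; cold libraries stand left of the line and normal growth libraries right of it. In CL3617 the contig of 1339 bases holds 64.4% to 72.1% in the cold and 7.78% to 9.92% in normal growth, at a total within the limit of 35%.

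The most abundant member, CL7903, was also called (adjusted p = 0.0043, edgeR diffSpliceDGE). Its contig of 1785 bases held 60.2%, 57.0% and 62.3% in the cold, against 40.4%, 37.9% and 33.5% in normal growth, and its contig of 1839 bases led in all 3 normal growth libraries with 41.0%, 38.6% and 47.6%. The other 3 clusters with means above 500 CPM were not called, with adjusted p of 0.27 for CL11336, 0.34 for CL8990 and 0.76 for CL10489 (edgeR diffSpliceDGE). In CL11336 the contig of 2023 bases held 32.5% ± 6.03 in the cold and 50.8% ± 5.35 in normal growth (SD, n = 3 each). The cold and normal growth shares of that contig did not overlap. In the contig test, 2 contigs of CL11336 were called lower in the cold and 0 higher. The missing usage call therefore does not show that the division of CL11336 was unchanged. In CL8990 the contig of 1209 bases held 82.7%, 49.7% and 53.5% in the cold, against 61.9%, 27.5% and 46.7% in normal growth, so the spread within each group was wide.

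Among the 5 member clusters with most contigs, 4 were called for a changed division. The share called was 43.4% of all 76 member clusters and 34.8% of the 641 other tested abundant clusters. Other clusters with as many contigs were not compared. CL14654, of 35 contigs, was not, at an adjusted p of 0.14 (edgeR diffSpliceDGE). CL12163, of 34 contigs, was called at 4.0e-06, and its contig of 9091 bases held 14.3% ± 8.37 in the cold and 3.53% ± 1.28 in normal growth (SD, n = 3 each). CL2128, of 31 contigs, was called at 0.0011, with its contig of 3847 bases at 17.0% ± 2.72 in the cold and 39.7% ± 3.69 in normal growth (SD, n = 3 each). CL1770 is given above, and CL15930, of 22 contigs, was called at 0.0033. Over all member clusters, those called had a median of 8 contigs and those not called a median of 5. Whether calls follow the number of contigs was not tested.

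The smallest shifts of the mean share were 0.128 points in CL7480, followed by CL8610 and CL12819, and none of the 3 was called with all 6 libraries. CL12819 had 96.6%, 95.9% and 95.4% of its reads on 1 contig of 2785 bases in the cold, against 92.8%, 99.5% and 93.9% in normal growth. Its adjusted p was 0.38, and ranged from 0.046 to 0.87 on leaving out 1 library, with the lowest value without normal growth replicate 2 (edgeR diffSpliceDGE). In CL7480 and CL8610 the means were level but the libraries were not. The leading contig of CL8610 held 70.2%, 99.9% and 79.5% in the cold, against 81.7%, 96.5% and 74.5% in normal growth.

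**Figure D4:**
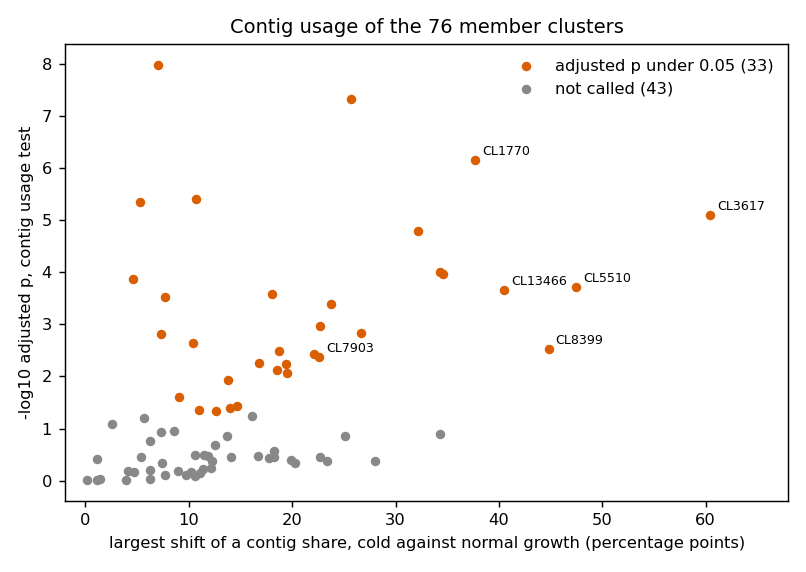
Each point is 1 of the 76 member clusters, with the largest shift of a contig's mean share between cold and normal growth on the x axis (percentage points) and -log10 of the adjusted p of the contig usage test on the y axis. The 33 clusters called are orange and the 43 others grey; CL3617 stands furthest right at 60.4 points.

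The contig with the largest mean share differed between the groups in 21 of the 76 member clusters, or 27.6%, against 20.4% of all 727 abundant clusters. In 6 of the 21, or 7.89% of the 76 clusters, 1 contig led in all 3 cold libraries and another in all 3 normal growth libraries. These were CL1770, CL3617, CL2376, CL8399, CL7903 and CL3277, named after their values were seen. Among the other abundant clusters this held for 13 of 651 (2.00%), and the difference was not tested. CL2376 shifted by 26.7 points at its 1799-base contig (adjusted p = 0.0015, edgeR diffSpliceDGE), while CL3277 shifted by 34.3 points and was not called (adjusted p = 0.13).

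Reads of the member clusters were spread over more contigs in the cold. The number of contigs that together held 80% of a cluster's reads averaged 2.91 ± 0.119 over the 76 clusters in the cold and 2.42 ± 0.0912 in normal growth (SD over libraries, n = 3 each). All 3 cold libraries, at 3, 2.78 and 2.96, lay above all 3 normal growth libraries, at 2.47, 2.32 and 2.47. From the mean shares of each group, the number was larger in the cold in 34 clusters (44.7%), smaller in 5 (6.58%) and equal in 37. Among the 651 other abundant clusters it was larger in 223 (34.3%) and smaller in 43 (6.61%), and the difference was not tested. The largest share in a member cluster had a median of 55.2%, 53.0% and 52.3% in the cold libraries, against 61.5%, 62.9% and 59.8% in the normal growth libraries. In TPM the gap was smaller, with a median of 52.5% ± 2.02 in the cold and 56.1% ± 1.16 in normal growth (SD over libraries, n = 3 each). Of the 588 contigs of the member clusters, 521, 521 and 512 had a read in the cold, against 468, 439 and 461 in normal growth, although the cold libraries were the shallower ones. The other abundant clusters went the same way, with 2.95 ± 0.0623 contigs in the cold and 2.63 ± 0.121 in normal growth (SD over libraries, n = 3 each), so the difference was also present outside the steady clusters.

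The rule chose the totals for being level and not the contigs, so the 2 are not compared. Of 473 tested contigs in the member clusters, 12 (2.54%) met the limit of 35%, against 0.288% of all 70729 tested contigs. Of all 483 tested contigs of members, 317 (65.6%) had a highest value of at least 4 times the lowest or no read in a library, against 76.6% of all tested contigs. The members were chosen for abundance and level totals, and all tested contigs were not, so nothing is read from either difference. The most abundant contig of a cluster met the ratio in 12 of 76 clusters. At an adjusted p under 0.05, 54 of the 483 tested contigs of the 86 members were higher and 18 lower in the cold (edgeR quasi-likelihood test), or 14.9% together. The shares among all tested contigs were 9.74% higher and 6.53% lower, or 16.3% together, so the total share was near the background. On simulated counts the contig test recovered only 9.5% of 200 contigs changed 16-fold, so contigs not called may have changed too. These 72 contigs lay in 38 of the 76 clusters (50%), and 10 clusters (13.2%) held both kinds. Of the other abundant clusters 55.9% held a called contig and 8.29% held both kinds. Of the 54 that were higher, 29 held under 5% of their cluster even in the cold.

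The contig count depended on all 6 libraries. It was 1, 23 and 12 without cold replicates 1, 2 and 3, and 0, 16 and 4 without normal growth replicates 1, 2 and 3. At an unadjusted p under 0.05, 130 contigs passed with all libraries (edgeR).

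Of the called contigs, CL8196.Contig3_All, of 4427 bases, had 84.1, 61.1 and 22.7 CPM in the cold and was listed at 0 in all 3 normal growth libraries, which is at least 998-fold higher when that group is given 3 reads in all (edgeR adjusted p = 0.012). It held 25.01%, 17.0% and 6.67% of the reads of CL8196 in the cold, the member with the narrowest spread of all. CL5395.Contig4_All, of 3964 bases, had 16.7, 13.99 and 4.62 CPM in the cold and was listed at 0 in normal growth, at least 210-fold higher (adjusted p = 0.017, edgeR).

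CL13432.Contig3_All, of 2603 bases, was listed at 0 in all 3 cold libraries and had 9.38, 6.39 and 8.59 CPM in normal growth, at least 134-fold lower in the cold against 3 reads over the cold group (adjusted p = 0.013, edgeR). CL12163.Contig5_All, of 1578 bases, had 1.43, 1.03 and 0.376 CPM in the cold, against 8.16, 8.45 and 14.7 CPM in normal growth, a log2 ratio of cold over normal growth of -3.57 with an SE of 0.69 (adjusted p = 0.022, edgeR). Bounds and floors cover counting error only. The call of CL8196.Contig3_All was lost without cold replicate 1 or normal growth replicate 1, with adjusted p up to 0.056 (edgeR). That of CL5395.Contig4_All held only without cold replicate 3 or normal growth replicate 2, with adjusted p up to 0.068 otherwise. That of CL13432.Contig3_All was lost without cold replicate 1 or normal growth replicates 1 or 3, with adjusted p up to 0.062, and that of CL12163.Contig5_All on leaving out any library, with adjusted p up to 0.071 (edgeR). Without normal growth replicate 2 the bounds were 661-fold for CL8196.Contig3_All and 139-fold for CL5395.Contig4_All, and without cold replicate 3 the bound was 87.0-fold for CL13432.Contig3_All.

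Where reads move between contigs of different length, a level total of reads need not be a level number of transcripts. Counted in TPM, which divides reads by contig length, 71 of the 86 members stayed within 35%, and the highest ratio was 1.56. That was CL15283, named after its value was seen, with 97.5, 148 and 119 TPM in the cold, against 144, 152 and 129 TPM in normal growth. Its 4563-base contig held 24.9%, 14.1% and 11.0% of the reads in the cold, against 5.81%, 9.58% and 3.83% in normal growth. CL5395 was lower in the cold with no overlap in TPM, as it was in CPM, at 472 ± 63.5 TPM in the cold and 606 ± 6.76 TPM in normal growth (SD, n = 3 each). In TPM every cold library exceeded every normal growth library in 9 members and was under every one in 6. A gap in either direction was seen in 55.4% of all abundant features, from which nothing is read because the rule limits it. On this per-length scale CL7903 remained the most abundant member, at 2468 ± 297 TPM in the cold and 2290 ± 108 TPM in normal growth (SD, n = 3 each), and CL13694 was the least abundant, at 41.7 ± 1.86 TPM in the cold and 40.7 ± 1.72 TPM in normal growth (SD, n = 3 each).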

How the data were processed

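Whole-seedling RNA was measured in 3 cold and 3 normal growth libraries, and each deposited file lists contig length, effective length, expected counts and TPM. Per the submitters' processing notes the tools were RSEM 1.2.8, Bowtie2 2.2.5 and DESeq2, with no role given. Expected counts, per the file headers, are reads the authors assigned to each contig by estimation, so contigs of 1 cluster share reads. TPM values were deposited by the authors and are per effective length. The assembler is not named in the labels.

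Expected counts were summed over contigs with the same CL number, each Unigene standing alone, and divided by the column total to give CPM. For tests they were rounded and fitted with edgeR 4.0.16 in R 4.3.3 (quasi-likelihood, TMM, low counts filtered), on 70729 contigs and 35987 clusters or unclustered contigs. Division between contigs was tested with diffSpliceDGE on 10253 clusters with at least 2 tested contigs. Benjamini-Hochberg adjustment ran over all of them, with a threshold of 0.05. This F test treats the contigs of a cluster as independent, which shared reads break. Depth was 15284397 to 18085164 estimated reads. Alternatives used DESeq2 1.42.0, limma 3.58.1, other scalings, filters and left-out libraries.

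On simulated independent counts with 2400 clusters changed 16-fold in contig ratio, the usage test recovered 50.3% of them and 7.08% of its calls were false, on 9942 clusters. With 200 clusters changed 16-fold it recovered 32% and 22.0% of its calls were false, on 9951 clusters. With 2400 changed 4-fold it recovered 0.25% and 40% of its 10 calls were false, on 9973 clusters, and with 200 changed 2-fold it recovered 0%, on 9931. With no change it called 9 of 9920. With 200 contigs changed 16-fold, the contig test recovered 9.5% and 1 of its 20 calls was false, on 65200 contigs. With 200 clusters or unclustered contigs changed 16-fold, the test at that level recovered 71%. Of its 153 calls 11 were false, on 33749 features.

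Features named were the members highest and lowest in mean CPM, lowest in ratio, nearest the limits, most changed in fitted fold, with most contigs, with the largest and smallest share shifts and the longest unclustered, and up to 2 contigs each way with the largest fitted change. Others are marked as chosen after their values were seen. The members, lists and tests were chosen with earlier results of these data known.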

Additional observations from a re-analysis of the deposited data

How the results depend on the processing

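The number of steady features was 203 at a minimum of 50 CPM, 26 at 200 CPM and 481 at 1 CPM, 33 within 25% and 197 within 50% of the lowest library, and 105 to 149 without 1 library. It was 80 with TMM, 69 with DESeq2 size factors, 71 in TPM and 27 for single contigs without summing. The 71 in TPM met the whole rule in TPM among all features, and are not the same set as the 71 members that stayed within 35% in TPM. Of 30 named members, the limit of 35% was exceeded by 16 with DESeq2 size factors, by 10 with TMM and by 3 in TPM. In TPM the members held 1.75% of the cold libraries and 1.73% of the normal growth libraries, and without 1 library they held 2.15% to 2.17% of cold reads and 2.11% to 2.18% of normal growth reads. The median log2 fold change of the members was 0.022 on library size alone, -0.25 with no filter on low counts, and -0.20 to -0.049 without 1 library. Clusters called for contig usage numbered 23 to 41 over all alternatives, and CL8399 was not called with the Simes combination (adjusted p = 0.13, edgeR). Called contigs numbered 96 with DESeq2, 1 at an adjusted p under 0.01 and 0 to 23 without 1 library. With the replicate number as a block, 0 contigs were called by edgeR, 112 passed an unadjusted p under 0.05, and usage was called in 26 clusters. Over contigs, the deviations of libraries with the same number had correlations of -0.089, -0.0068 and -0.077, so no shared effect of the number was seen. These values cannot show whether the samples were collected or handled in pairs. The leading contig differed in 6 clusters when it had to be the same within each group, in 22 by TPM and in 19 to 25 without 1 library. The contigs needed for 80% of a cluster averaged 3.03 in the cold and 2.49 in normal growth by TPM, an alternative chosen after seeing the data. The causes of these shifts were not tested.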
